A study of Drosophila melanogaster with 12 samples.

Results

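The 7th day of feeding pentylenetetrazole (PTZ) to flies was described from the 4 of 12 deposited arrays that set RNA of PTZ fly heads against RNA of normal food (NF) fly heads at that time. All replicates titled with this time point were taken, and the measured values played no part in the choice. Both NF and PTZ flies were unmated Oregon-R wild type males, 3 to 4 days old when they were placed on their food, 30 to a vial. PTZ flies received 8 mg of the drug per ml of food, and NF flies, kept in parallel in vials of their own, were of the same strain, sex and age, were handled alike and lacked only the drug. Heads were sieved from frozen flies and pooled over vials, so that a value belongs to a pool of whole heads and not to 1 fly, to the brain or to 1 cell type. Each array compared 1 NF pool with 1 PTZ pool, labelled with Cy3 and Cy5, and the methods call the 4 pairs of pools biological replicates. On replicates 1 and 2 (forward arrays) PTZ RNA carried Cy5, while replicates 3 and 4 had the opposite labelling (swapped arrays). In pooled heads, fewer cells of a type and less RNA per cell cannot be told apart.

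PTZ blocks the chloride channels that open when the inhibitory transmitter GABA binds. In vertebrates it evokes seizures, and repeated low doses make later responses stronger, a process known as kindling. GABA is made from glutamate by glutamate decarboxylase, is cleared into neurons and glia and is broken down by GABA transaminase, while glia turn glutamate into glutamine. A fly head holds, beside the brain, the photoreceptors of the compound eye, the fat body, which secretes lipid carriers and storage proteins into the haemolymph, muscle, and the olfactory organs with their odorant binding proteins.

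The array carried 13824 features, each spotted at 2 adjacent positions whose log2 ratios were averaged. A feature was analysed if at least 3 of the 4 arrays gave a value, and 4316 features, of which 2689 carried the symbol of 1 gene (2547 genes), met this. Of these, 1394 had a value on all 4 arrays and 2922 on 3. The arrays were unequal in what they measured. Replicates 1 and 3 gave a value for 18086 and 16526 of 27648 spots, replicates 2 and 4 for 6148 and 6535. As a result 1610 features lacked replicate 2, 1279 lacked replicate 4, 16 lacked replicate 1 and 17 lacked replicate 3.

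The direction of the ratio was known on the forward arrays, where it is PTZ over NF. The sources do not say whether the swapped ratios had been turned before deposit. Counts of features, medians of gene lists and means of named genes over the arrays of the 7th day are therefore given in 2 readings: turned, in which the values of replicates 3 and 4 were multiplied by -1 to bring them to PTZ over NF, and as deposited, in which they were taken to be PTZ over NF already. Lower and higher always mean lower or higher in PTZ flies than in NF flies within the reading named. A feature on 3 arrays has 2 of 1 orientation and 1 of the other, and its means weight the orientations unequally. An offset common to its 3 arrays therefore does not cancel in its turned mean.

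The arrays differed in their centres. The median log2 ratio of the analysed features was -0.06 on replicate 1, 0.13 on replicate 2, -0.06 on replicate 3 and -0.65 on replicate 4, all as deposited. Replicate 4 stood apart from the rest, with 87.5% of its features below 0 against 54.7%, 35.7% and 61.9% on replicates 1 to 3. Over all spots the medians of the 8 arrays of the other time points lay between -0.202 and 0.162, and that of replicate 4 was -0.642. Adjacent spots of a feature correlated across features with r from 0.504 to 0.572 on replicates 1 to 3 and 0.810 on replicate 4. The plot of ratios by array shows the shift of replicate 4 beside the other 3.

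**Figure D1:**
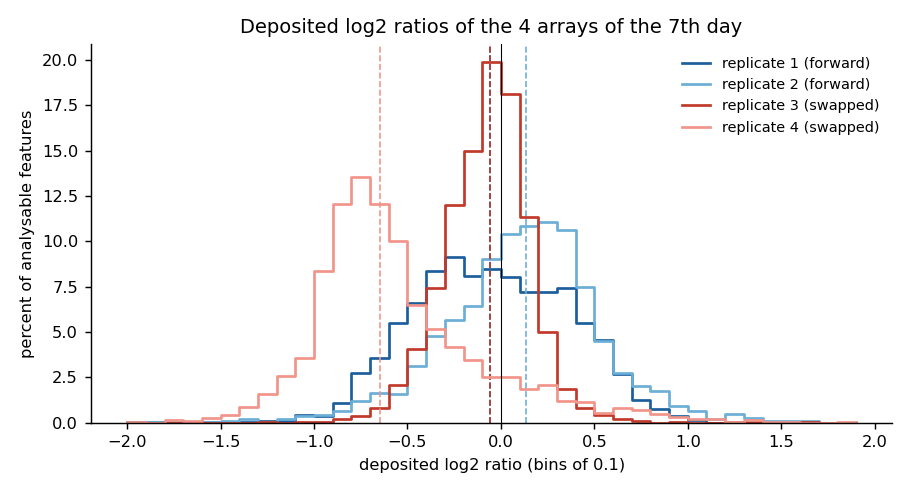
Distribution of log2 ratios as deposited on the 4 arrays of the 7th day, over the analysed features with a value on that array. The horizontal axis is the log2 ratio, drawn from -2 to 2 (8 of the values lie outside), and the curve of replicate 4, with its median at -0.65, lies to the left of the other 3.

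Across features the 4 arrays did not vary together in either reading. Between the forward arrays r was -0.15 over 2690 features and between the swapped arrays 0.19 over 3020. As deposited, replicate 1 correlated with replicates 3 and 4 at 0.18 (4283 features) and 0.39 (3021 features), and replicate 2 with the same arrays at -0.12 (2689 features) and -0.27 (1427 features). Turned, these 4 correlations have the opposite sign. Replicate 2 ran with replicates 3 and 4 only when they were turned, and replicate 1 only when they were not. Features are not independent replicates, and the points of each pair share features, arrays and scaling.

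With the swapped arrays turned, no feature differed between PTZ and NF flies after adjustment. Of 4316 features, 0 were lower (0%) and 0 higher (0%) by limma's moderated test of the mean against 0, with Benjamini-Hochberg adjustment at 0.05, while an unadjusted p under 0.05 was reached by 19 (0.44%) on the lower side and 79 (1.83%) on the higher. The significance analysis of microarrays (SAM), the test the methods name, called 3 features, all lower. The median of the means was 0.16, and 879 features (20.4%) had a mean below 0. Positive means, the majority here, run against the direction that the study gives for the genes it called at this time point, and no comparison gene by gene was made. Of the 1394 features on all arrays, 183 (13.1%) had 1 sign above 0 and 12 (0.861%) below 0 on all 4.

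Taken as deposited, the same values gave 27 lower features (0.626% of 4316) and 2 higher ones (0.0463%) after adjustment. At an unadjusted p under 0.05, 391 (9.06%) had lower and 25 (0.579%) higher means. SAM, at its looser rate, called 1011, all lower. The median of the means was -0.13, and 3000 features (69.5%) lay below 0. That median was 0.05 for the 1279 features without replicate 4, -0.30 for the 1610 without replicate 2 and -0.12 for the 1394 on all arrays. On all 4 arrays 86 features (6.17%) were below 0 and 23 (1.65%) above. With every array centred on its own median, 0 features passed, and an unadjusted p under 0.05 was reached by 145 on the lower side and 118 on the higher, against 391 and 25 before. Centred and turned, 62 were lower and 27 higher at that p, the reverse of the order without centring. In the fit as deposited without centring the estimated prior degrees of freedom were infinite. There a p followed the size of the mean and hardly the spread of the feature's own arrays. In the turned fit without centring they were 33.

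The 27 lower features carried 11 named genes on 12 features and 15 features without a symbol here. Their means ran from -2.46 to -0.77. Replicate 2 gave no value for 16 of the 27, and 23 had 1 sign on all arrays with a value. Turned, their means ran from -1.22 to 0.65, and 0 of the 27 had 1 sign. The named genes were mRpS34, apolpp (2 features), CG6357, Jhbp13, CG16926, CG44014, CG6983, Taldo, CG3036, CG10019 and CG10214. On the higher side stood 1 named gene, Obp99d, and 1 feature without a symbol.

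**Figure D2:**
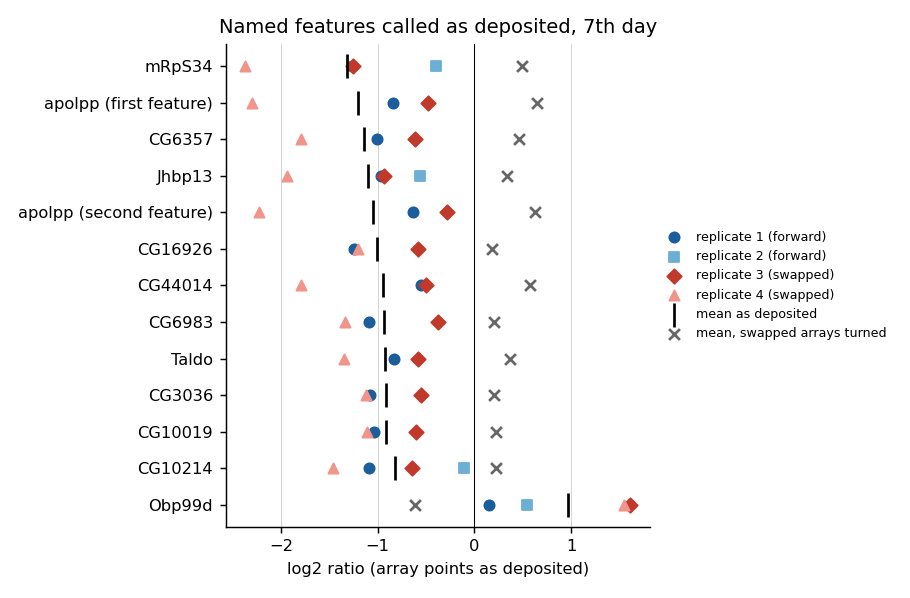
Log2 ratios as deposited of the named features that passed the test in that reading, 1 line of markers per feature with a coloured marker for each array that gave a value, a black bar at the mean as deposited and a grey cross at the turned mean. Replicate 4 lies farthest to the left for most genes, Obp99d alone lies above 0 as deposited, and each turned mean is on the other side of 0.

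mRpS34, a protein of the small subunit of the mitochondrial ribosome encoded on chromosome 3L, had the lowest mean among named genes. Its log2 ratios as deposited were -1.26, -0.39, -1.25 and -2.37 on replicates 1 to 4, a mean of -1.32 ± 0.81 (SD, n = 4; limma adjusted p = 1.09e-06). All 4 arrays lay below 0, replicate 4 lowest and replicate 2 nearest to 0. Turned, its forward and swapped arrays lay on opposite sides of 0 and its mean was 0.49. The other 16 mitochondrial ribosomal genes analysed lay between -0.38 and 0.18 as deposited, and none of them passed.

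Of the 6 analysed genes of the fat body list, apolpp and Jhbp13 passed as deposited, where 0.626% of all features were lower. The list was chosen with earlier results of these data known. apolpp, on chromosome 4, encodes the precursor of the apolipophorins, the protein core of the lipoprotein that carries lipids through the haemolymph. Its first feature gave -0.84, -0.48 and -2.30 on replicates 1, 3 and 4 (mean -1.21 ± 0.96, SD, n = 3; limma adjusted p = 0.000956), and its second -0.64, -0.28 and -2.23 (mean -1.05 ± 1.03, n = 3; limma adjusted p = 0.0097). Both features were below 0 on each of the 3 arrays, with replicate 4 far below replicates 1 and 3, and neither had a value on replicate 2. Turned, their means were 0.65 and 0.62. Jhbp13, on chromosome 2L and by its name of the juvenile hormone binding protein family, gave -0.97, -0.56, -0.93 and -1.94 (mean -1.10 ± 0.59, SD, n = 4; limma adjusted p = 0.000322). It was below 0 on all 4 arrays, again lowest on replicate 4, and its turned mean was 0.34.

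Taldo, transaldolase of the pentose phosphate pathway, gave -0.84, -0.59 and -1.35 on replicates 1, 3 and 4 (mean -0.92 ± 0.39, SD, n = 3; limma adjusted p = 0.0346). All 3 lay below 0, and the turned mean was 0.37. The remaining 7 named lower genes, CG6357, CG16926, CG44014, CG6983, CG3036, CG10019 and CG10214, had means from -1.14 to -0.82 and adjusted p from 0.0032 to 0.0346. Of these, CG10214 alone had a value on replicate 2, at -0.10, and its other arrays gave -1.09, -0.64 and -1.47. A second feature of CG6357 had a mean of -0.73 and did not pass (limma adjusted p = 0.18). In CG16926 the forward array (-1.24) lay farther from 0 than the mean of the swapped arrays as deposited (-0.89). The same held for CG6983, CG3036 and CG10019, and not for CG6357 and CG44014. The turned means of those 4, from 0.18 to 0.23, were above 0 with 2 swapped arrays counted against 1 forward array.

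Obp99d, an odorant binding protein gene on chromosome 3R, was the named gene higher as deposited. Its feature that passed gave 0.16, 0.54, 1.61 and 1.55 on replicates 1 to 4 (mean 0.96 ± 0.73, SD, n = 4; limma adjusted p = 0.0042). The 2 swapped arrays were far above the 2 forward arrays, so that the turned mean was -0.62. Its other feature gave 0.21, -0.09, -0.01 and -0.53 (mean -0.10; limma adjusted p = 0.90), and the 2 features of the gene thus did not move together.

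Leaving out single arrays changed which of these genes passed. A feature on 3 arrays that lost 1 in this way was tested on the remaining 2. As deposited, 6 features passed without replicate 1, 93 without replicate 2, 10 without replicate 3 and 7 without replicate 4, and 6, 28, 9 and 5 of them were among the 29. Turned, 31 passed without replicate 1 (7 lower and 24 higher), 1 without replicate 3 and 0 without replicate 2 or 4. Among the 24 higher ones without replicate 1 were mRpS34 (turned estimate 1.08), both features of apolpp (1.39 and 1.25), CG6357 (1.20) and CG44014 (1.14), which were lower as deposited, and Obp99d (-0.87) was among the 7 lower. mRpS34 and Jhbp13 were the named genes that passed as deposited whichever of the 4 arrays was left out, with limma adjusted p from 1.73e-09 to 0.00246 for mRpS34 and from 1.95e-05 to 0.0484 for Jhbp13. Taldo, which has no value on replicate 2, was left with 2 arrays by each omission of another. Its adjusted p was 0.699 without replicate 1 (estimate -0.97, against -0.92 with all its arrays) and 0.429 without replicate 4 (-0.71). For Obp99d it was 0.349 without replicate 3 (0.75) and 0.0921 without replicate 4 (0.77). Among the 1394 features on all 4 arrays, mRpS34, Jhbp13 and Obp99d were the 3 that passed, with adjusted p of 9.0e-05, 0.00466 and 0.0355. With arrays centred on their medians the smallest adjusted p among the named genes was 0.216, for mRpS34 (estimate -1.16, against -1.32 without centring) and Jhbp13 (-0.94, against -1.10).

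The forward arrays alone, whose direction is known, gave no feature past the threshold. Of 2944 features on both, 0 (0%) passed in either direction by limma, and 27 (0.917%) on the lower and 38 (1.29%) on the higher side reached an unadjusted p under 0.05. The swapped arrays alone gave 4 features below 0 (0.127% of 3150) and 1 above (0.0317%) as deposited, with 247 (7.84%) and 22 (0.698%) at an unadjusted p under 0.05. Those 5 were Jhbp13 at -1.44, mRpS34 at -1.81, apolpp at -1.39, a feature without a symbol at -1.97 and Obp99d at 1.58. In a fit over all 4 arrays with dye orientation as a coefficient, the turned reading gave 0 (0%), and the reading as deposited 8 lower (0.185%) and 1 higher (0.0232%). The named genes of those 9 were mRpS34 (adjusted p = 2.66e-05), Jhbp13 (0.00227), apolpp (0.0456), CG6357 (0.0477) and Obp99d (0.0209). The plot of forward against swapped means shows these genes at the edge of a cloud with little slope.

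**Figure D3:**
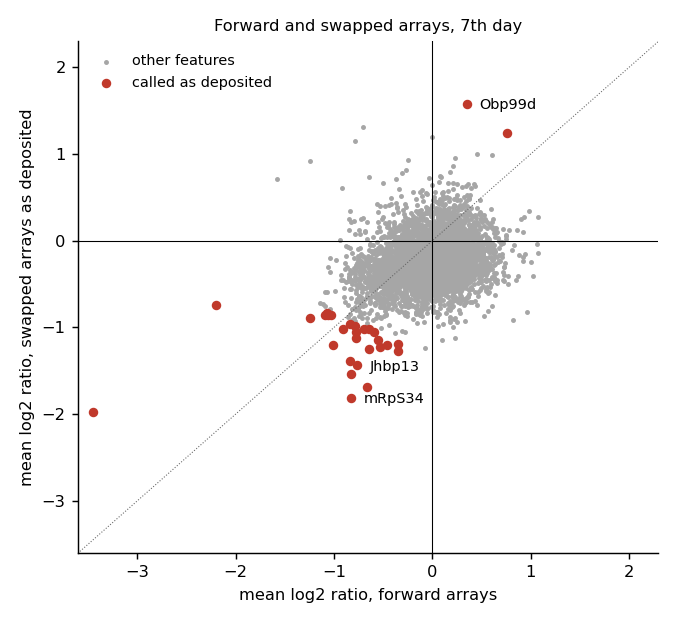
Mean log2 ratio of the forward arrays (horizontal axis) against that of the swapped arrays as deposited (vertical axis), 1 point per analysed feature with both, and red for the features that passed as deposited. The dotted line marks equal values, and mRpS34 and Jhbp13 lie below the cloud and Obp99d above it.

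The list of glutamate and GABA metabolism had a median below that of all features as deposited and close to it when turned. Of 14 genes of the list 9 were on the array and 6 were analysed, and 0 passed in either reading. The median of the 6 was -0.50 as deposited, against -0.13 over all features, with 4 lower at an unadjusted p under 0.05, which 9.06% of all features were and 16.2% of the features with a value on all 8 arrays of the other time points, where 4 of the 6 belong. Turned, the median was 0.16, as over all features, with 0 lower and 0 higher at that p, and the 6 means lay between 0.09 and 0.27. By array their medians were -0.73, 0.09, -0.31 and -0.96 on replicates 1 to 4. Gad1, glutamate decarboxylase, gave -1.11, -0.54 and -0.91 on replicates 1, 3 and 4 (mean -0.85 ± 0.29, SD, n = 3; limma adjusted p = 0.0623), all below 0, with a turned mean of 0.11. Gs2, the glutamine synthetase of glia, gave -0.62, 0.07, -0.50 and -1.13 (mean -0.55; limma adjusted p = 0.318, turned mean 0.27), with replicate 2 alone above 0. Gabat, GABA transaminase, gave -1.07, 0.58, -0.26 and -1.05 (mean -0.45; limma adjusted p = 0.474, turned mean 0.21), and Gdh, glutamate dehydrogenase, -0.52, 0.12, -0.37 and -0.87 (mean -0.41; limma adjusted p = 0.528, turned mean 0.21). In both, replicate 2 again lay on the other side of 0. P5CDh1, a mitochondrial enzyme of proline breakdown to glutamate, had a mean of -0.65 (turned 0.09) and gb, a glial amino acid exchanger gene, one of -0.03 (turned 0.10), above the median of all features as deposited. For gb, replicate 4 gave no value.

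Genes of receptors, vesicle release and ion channels were thinly covered. Of 15 GABA and glutamate receptor genes 2 were analysed, of which Lcch3, a subunit of the GABA-gated channel family, gave 0.38, 0.11 and 0.10 on replicates 1 to 3, all above 0, with no value on replicate 4 (mean 0.20; limma adjusted p = 0.818, turned mean 0.13). GluClalpha, the glutamate-gated chloride channel, had a mean of -0.19 (turned 0.32). The 3 vesicle genes were nSyb, the neuronal synaptobrevin (mean 0.18, turned 0.34), Rop (-0.14, turned 0.07), which binds syntaxin, and Csp, the cysteine string protein (-0.58, limma adjusted p = 0.427, turned 0.08). The 5 channel and pump genes had a median of -0.08 (turned 0.22). The 7 bang-sensitive and seizure genes of the list were matched to no symbol in the annotation used and were not analysed here, which says nothing of whether the array carries them.

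In phototransduction 9 of 25 genes were analysed, 0 passed, and 5 were lower at an unadjusted p under 0.05 as deposited, against 9.06% of all features. The share was 16.2% among features with a value on all 8 arrays of the other time points, where 4 of the 9 belong. The median of the 9 was -0.54 as deposited and 0.16 turned, with 0 lower and 0 higher at that p when turned. By array the medians were -0.56, 0.05, -0.25 and -0.96. Arr1, an arrestin that ends the light response, gave -0.67, -0.44 and -1.34 on replicates 1, 3 and 4 (mean -0.81 ± 0.47, SD, n = 3; limma adjusted p = 0.0866, turned mean 0.37). inaC, the protein kinase C of the eye, gave -0.56, -0.29, -0.40 and -0.95 (mean -0.55; limma adjusted p = 0.318, turned mean 0.13), below 0 on all 4 arrays. Galphaq, the G protein that couples rhodopsin to phospholipase C, had a mean of -0.66 (turned 0.14), inaD, the scaffold of the signalling complex, -0.35 (turned 0.42), and the channel gene trpl -0.41 (turned 0.38).

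The lists of energy supply and of the vacuolar ATPase also had medians below that of all features as deposited, with members on both sides of it. Of 23 analysed oxidative phosphorylation genes 20 had a mean below 0 as deposited, against 69.5% of all features. Among the 23, 0 passed and 7 were lower at an unadjusted p under 0.05. That share compares with 9.06% of all features and 16.2% of those with a value on all 8 other arrays, to which 16 of the 23 belong. Their median was -0.32 (turned 0.25), and ND-B18 and ND-13B, subunits of respiratory complex I, had means of 0.22 and 0.20 (turned 0.44 and 0.47). Neither of these 2 had a value on replicate 4. On replicate 3 they gave -0.32 and -0.41, against a list median of -0.27 on that array. ATPsynC, the membrane ring subunit of ATP synthase, gave -0.69, -0.68 and -0.97 on replicates 1, 3 and 4 (mean -0.78; limma adjusted p = 0.108, turned mean 0.32), a narrow range below 0. All 8 analysed genes of the vacuolar ATPase, the proton pump that fills synaptic vesicles and acidifies organelles, were below 0 as deposited, against 69.5% of all features. Turned, 1 of the 8 was below 0, against 20.4% of all features. The median of the 8 was -0.46 (turned 0.15), from Vha26 at -0.82 to Vha16-1 at -0.01 as deposited. Of the 8 genes, 6 had a value on all 8 arrays of the other time points. Over all features of that kind the median was -0.24 as deposited. Vha26 gave -0.74, -0.75 and -0.99 on replicates 1, 3 and 4 (limma adjusted p = 0.0834, turned mean 0.33), all below 0. Vha55 gave -0.63, -0.50 and -0.50 on replicates 1 to 3 and had no value on replicate 4. Its mean was below 0 in both readings (-0.54, turned -0.21), the turned one with 2 forward arrays counted against 1 swapped array. The 13 genes of glycolysis, glycogen and the TCA cycle had a median of -0.26 (turned 0.27). Taldo was the 1 of them past the threshold as deposited, where 0.626% of all features were lower. In that list Ald1, aldolase, and Eno, enolase, had means of -0.67 and -0.57 (turned 0.49 and 0.32) that did not pass (limma adjusted p = 0.276 and 0.435), and Glys, glycogen synthase, had 0.16 (turned -0.32).

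The fat body list, of which 6 of 18 genes were analysed, had a median of -0.48 as deposited and 0.33 turned, against -0.13 and 0.16 over all features. By array its medians were -0.52, -0.10, -0.36 and -1.43 with replicate 4 far below the rest. Beside apolpp and Jhbp13, Apoltp, which encodes the lipid transfer particle, and Npc2a, a sterol carrier, had means of -0.48 each (turned 0.12 and 0.33), while the storage protein receptor gene Fbp1 had 0.18 (turned 0.47) and Fbp2 0.07 (turned 0.13). Neither Fbp1 nor Fbp2 had a value on replicate 4. Cytosolic ribosomal protein genes (12 analysed, median -0.08 as deposited and 0.30 turned) and proteasome genes (9 analysed, -0.06 and 0.15) had no member lower at an unadjusted p under 0.05 as deposited. Of all features 9.06% were lower at that p, a share at which lists this small can hold 0. In the plot of list medians by array, replicate 2 lay mostly above 0 and replicate 4 below it.

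**Figure D4:**
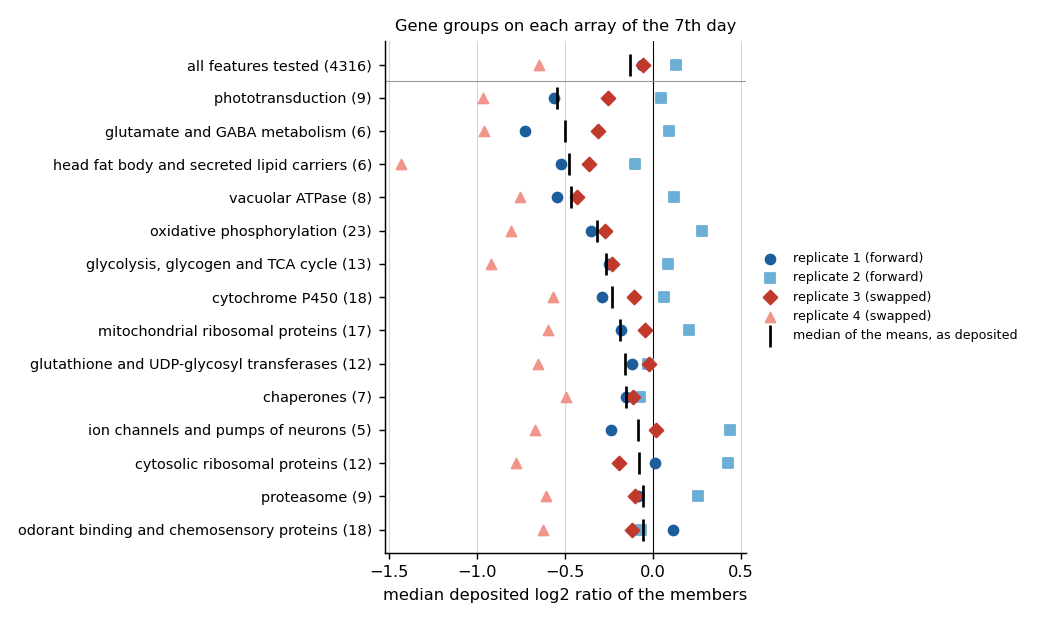
Median log2 ratio as deposited of the analysed members of each gene list, 1 coloured marker per array and a black bar at the median of the means, with all analysed features in the top line and the number of analysed members after each name. Replicate 4 lies below 0 in every list drawn, and the median of the means is lowest for phototransduction (-0.54) and for glutamate and GABA metabolism (-0.50).

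Lists of detoxification and of chemosensation were mixed. Of 12 glutathione and UDP-glycosyl transferase genes the median was -0.16 as deposited (turned 0.18). GstD1, a glutathione transferase, gave -0.90, -0.15, -0.52 and -1.27 (mean -0.71 ± 0.49, SD, n = 4; limma adjusted p = 0.0849, turned mean 0.19), below 0 on all 4 arrays, and GstD9 -0.62, -0.59 and -0.68 on replicates 1, 3 and 4 (mean -0.63; limma adjusted p = 0.331, turned mean 0.22). GstD2 of the same cluster had a mean of 0.26 (turned 0.48), with no value on replicate 4. Cytochrome P450 genes (18 of 87 analysed) had a median of -0.23 as deposited and 0.06 turned, and 0 passed. Of 18 odorant binding and chemosensory genes 5 had a mean below 0 and 1 above 0 by an unadjusted p under 0.05 as deposited, against 9.06% and 0.579% of all features. Their median was -0.05 (turned 0.16), and 0 reached that p when turned. Obp59a, which was above 0 by that p, gave 0.54, -0.04, 0.46 and 0.86 (turned mean -0.20), and Obp57c, which was below it, -0.47, -0.34, -0.15 and -1.43 (turned mean 0.19). Obp99d passed only on 1 of its 2 features and is counted in this list by the other.

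A feature's value on the 7th day moved with how often it was measured elsewhere. For the 1608 features with a value on all 8 arrays of the other time points the median mean was -0.24 as deposited, 16.2% were lower at an unadjusted p under 0.05, and 19 of the 27 lower features were among them. For the 899 features with no value on those arrays the median was -0.01 and the percentage 3.56. On replicate 1 the medians of these sets were -0.25 and 0.21, and on replicate 2 0.29 and -0.02. Of the genes of glutamate and GABA metabolism 4 of 6 were in the first set, of phototransduction 4 of 9, of oxidative phosphorylation 16 of 23 and of the vacuolar ATPase 6 of 8. The part of detection in the medians of these lists was not tested.

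Markers of the cell types of the head were few among the analysed features. Of 8 pan-neuronal markers nSyb was analysed, of 8 photoreceptor markers chp (mean -0.21 as deposited, 0.21 turned), and of 10 glial markers Gs2. The 4 analysed of 18 muscle markers had a median of -0.18 (turned 0.20) and the 2 of 8 haemocyte markers one of -0.06 (turned 0.06). Of markers that a clean head should lack, 1 of 14 accessory gland genes was analysed (Acp36DE, mean -0.05, turned 0.04), 4 of 27 midgut enzymes (median -0.26, turned 0.12) and 2 of 19 testis genes. The testis genes were Mst77F (-0.08, turned 0.47) and ocn, which gave -1.09, -0.77 and -0.73 on replicates 1, 3 and 4 (mean -0.87 ± 0.20, SD, n = 3; limma adjusted p = 0.0602, turned mean 0.14), below 0 on each. A second feature of Mst77F had a mean of -0.17 (turned -0.33), on the other side of 0 when turned. The part of these markers in the results above was not tested.

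Among the features with 1 sign on all 4 arrays when turned, those with the largest forward means were named. yata, of them, gave 0.08, 1.06, -0.47 and -1.16 as deposited (turned mean 0.69 ± 0.51, SD, n = 4; limma adjusted p = 0.964). Replicates 2 and 4 carried most of that mean, and without replicate 1 it passed (estimate 0.89; limma adjusted p = 0.0402). Adgf-C, an adenosine deaminase-related growth factor, gave 0.51, 0.77, -0.39 and -0.55 (turned mean 0.55 ± 0.16, SD, n = 4; limma adjusted p = 0.964), a narrow range once turned. CG31974 gave -0.49, -0.81, 0.53 and 0.93 (turned mean -0.69 ± 0.22, SD, n = 4; limma adjusted p = 0.964). The forward and the swapped arrays of these 3 genes did not overlap as deposited, which the choice of such genes fixes, and none of the 3 passed the test.

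As deposited, genes with 1 sign on all 4 arrays and the largest forward means included CG2736 at -0.98, -0.29, -0.49 and -0.61 (mean -0.59, turned -0.04; limma adjusted p = 0.253) and the transcription factor gene zfh2 at -1.04, -0.43, -0.27 and -0.53 (mean -0.57, turned -0.17; limma adjusted p = 0.294). Above 0 stood CG8745 at 0.55, 0.40, 0.59 and 0.03 (mean 0.39, turned 0.08; limma adjusted p = 0.552) and Capa, a neuropeptide gene, at 0.26, 0.34, 0.15 and 0.16 (mean 0.23, turned 0.07; limma adjusted p = 0.753). All 4 were on 1 side of 0 on each array, but their means did not pass. Of the genes the methods tested by real time PCR, 3 were analysed: Gbs-70E gave -0.39, 0.18, 0.17 and -1.49 (mean -0.38 as deposited, 0.28 turned), Gbs-76A 0.15, -0.07, 0.08 and -0.36 (-0.05 and 0.09), and Cyp28d1 -0.85, -0.44 and -0.49 on replicates 1, 3 and 4 (-0.59 and 0.02). The glycogen-binding subunit genes Gbs-70E and Gbs-76A straddled 0 in both readings. CG7766, AkhR and PhKgamma had a value on fewer than 3 arrays. Men, Pdk and AGBE, the others of that set, were not matched to a symbol in the annotation used and were not analysed here.

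The 7th day was set against the 2nd day and 12 hrs in 1 fit over the 12 arrays, on features with a value on at least 3 arrays at both times. Against the 2nd day 1 of 2483 features was lower (0.0403%) in each reading, a different one in each and neither with a symbol, and 0 were higher (0%). An unadjusted p under 0.05 was reached turned by 9 (0.362%) on the lower side and 226 (9.1%) on the higher, and as deposited by 147 (5.92%) and 58 (2.34%). With arrays centred these counts were 49 and 55 turned, and 120 and 135 as deposited. The one lower when turned had a 7th day mean of -1.03 against 0.23, a difference of -1.26 (SE 0.22; limma adjusted p = 0.0489). The one lower as deposited gave -3.45, -2.52 and -1.42 on replicates 1, 3 and 4 of the 7th day, all far below its 8 values at the other times, which lay between -0.59 and 0.25. Its difference was -2.30 (limma adjusted p = 0.0025).

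Against 12 hrs, 0 of 2227 features differed (0% in each direction) when turned, and 8 (0.359%) on the lower and 52 (2.33%) on the higher side reached an unadjusted p under 0.05 (56 and 57 with arrays centred). As deposited 5 were lower (0.225%) and 0 higher (0%), with 307 (13.8%) and 15 (0.674%) at an unadjusted p under 0.05 (90 and 93 with arrays centred). The 3 named ones were mRpS34, with a difference of -1.75 (SE 0.33; limma adjusted p = 0.0189), CG3036, -1.32 (SE 0.24; 0.0189), and Taldo, -1.12 (SE 0.24; 0.049). At 12 hrs mRpS34 gave 0.96, 0.19 and 0.14 on replicates 2 to 4, all above 0 and above its 7th day values. On the 2nd day it gave -1.08, -0.99, -0.56 and -0.91, within its 7th day range. Taldo gave 0.36, 0.06, 0.33 and 0.06 at 12 hrs and 0.07, -0.46, 0.09 and 0.33 on the 2nd day, so that its 7th day values lay below those of both. CG3036 gave 0.30, 0.45, 0.50 and 0.36 at 12 hrs and -0.67, -0.90, -0.45 and 0.09 on the 2nd day, against -1.07, -0.55 and -1.12 on the 7th, which overlapped the 2nd day and not 12 hrs. Just outside the threshold lay CG16926 (-1.20; limma adjusted p = 0.0516), Jhbp13 (-1.19; 0.0516) and Miox, myo-inositol oxygenase (-1.04; 0.0535).

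**Figure D5:**
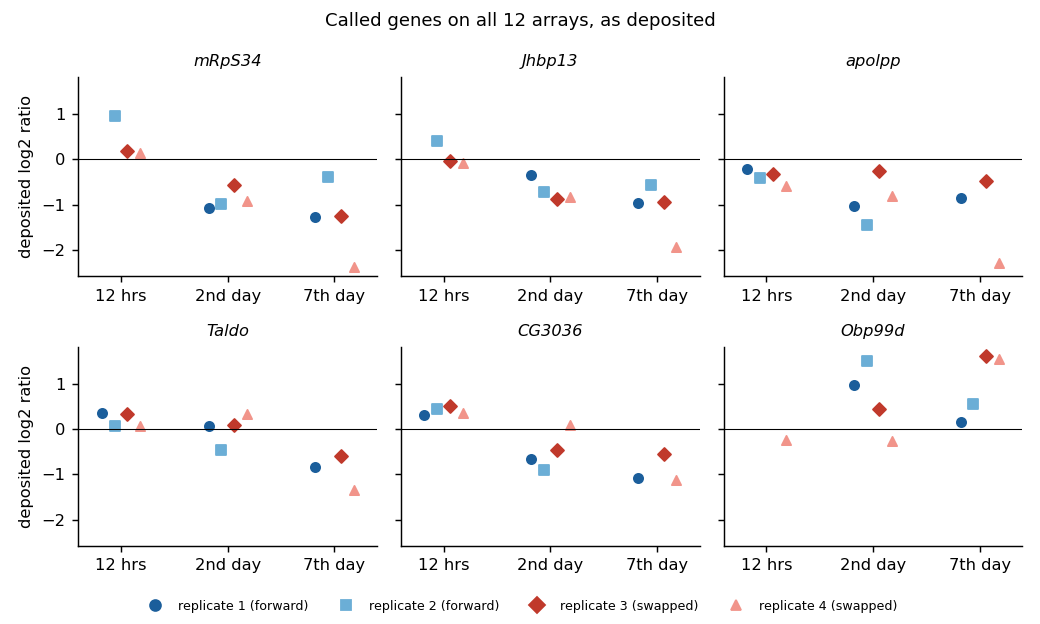
Log2 ratios as deposited of named genes that passed on the 7th day, by time point, 1 marker per array, blue for forward and red for swapped arrays, each gene in its own panel. The vertical axis is the log2 ratio, and mRpS34 lies above 0 on the 3 arrays of 12 hrs that measured it and below 0 on all arrays of the 2nd and 7th day.

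The other named genes with the smallest p against the 2nd day did not pass. As deposited, Sodh1, a sorbitol dehydrogenase, differed by -1.27, ocn by -0.96, GstD9 by -0.95, Taldo by -0.93, ATP6AP2 by -0.81 and Grx1, a glutaredoxin, by -0.79, with limma adjusted p of 0.262 each. Turned, Pdp1, a transcription factor of the circadian clock, differed by 1.13, CG46385 by 0.94, ND-13B, a subunit of respiratory complex I, by 0.93 and Adgf-C by 0.80, with adjusted p of 0.43. Pdp1 gave -0.16, 0.65, -0.01 and -0.82 on the 7th day, on both sides of 0, and -1.05, -1.19, -0.13 and 1.11 on the 2nd.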

How the data were processed

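The authors scanned 2-colour cDNA arrays with GenePix, normalized them by ratio in Acuity and filtered the spots for signal strength and quality. The deposited values are log2 ratios, whose log base was taken from their range. Their centring is that of the authors' normalization, with medians over spots of 0.036, 0.1325, -0.047 and -0.642 on replicates 1 to 4 of the 7th day, and their direction on swapped arrays is unknown. All 12 columns were mapped to samples. Of the 2nd day and 12 hrs arrays, 3 have labels that contradict themselves on treatment or dye, and their orientation was taken from title, protocol and methods. No counts or intensities were used here, so the number of arrays limits the precision.

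The 2 spots of a feature were averaged, and features on at least 3 of 4 arrays were tested with limma 3.58.1 in R 4.3.3 (mean against 0, 2-sided, Benjamini-Hochberg adjustment over all features, threshold 0.05). SAM used the 16 possible sign flips. The contrasts of time points came from a joint fit of the 12 arrays. The limma test of the mean in both readings and the contrast with the 2nd day were tried on simulated data, and the other steps were not. Of the spots, 15116 carried 1 gene symbol in the platform annotation, 102 several and 12430 none, and 7447 of 7558 features with 1 symbol were matched to current Release 6 symbols.

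The members, gene lists and tests were chosen with earlier results of these data known, so lists are given by counts and medians beside those of all features. Named genes are those past the threshold in either reading with 1 sign on all arrays (at most 15 per direction), the first 5 analysed members of each list, 6 per contrast with the smallest p, 6 per direction with the largest forward mean among those with 1 sign on 4 arrays, and the real time PCR genes. Where a gene had several features, the one on most arrays was used. Other genes were named after their values were seen. Alternatives were the other reading, centring, scaling, a running median, other minimum numbers of arrays, a dye coefficient, averaging per gene, unaveraged spots, SAM, a replicate block and the omission of each array in turn.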

Additional observations from a re-analysis of the deposited data

Results flagged for a closer look

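Of 137 sets of 4 values tested for 1 array far from the other 3, chance marks about 1 in 20, and 3 were marked. ERR, the estrogen-related receptor, had 1.146 on replicate 2, with 0.01, -0.14 and -0.02 on replicates 1, 3 and 4, and was marked in both readings. nkd had -0.4785 on replicate 2, far from its other 3 arrays when turned.

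The features whose 7th day mean differed from that of another time point were as follows. A feature without a symbol was lower than on the 2nd day by -1.26 when turned. As deposited, another one without a symbol was lower than on the 2nd day and than at 12 hrs by -2.30 each. Against 12 hrs, mRpS34 differed by -1.75, CG3036 by -1.32, Taldo by -1.12 and a further feature without a symbol by -1.34.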

How the results depend on the processing

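Turned, the count of 0 over all arrays was 29 as deposited, 1 with features of a gene averaged (CG18787), 5 with spots unaveraged, 3 by SAM and 0 to 31 with 1 array left out (31 without replicate 1). The 29 as deposited became 0 when arrays were centred, 0 with centring and scaling, 0 with a running median subtracted, 3 on 4 of 4 arrays, 69 on 2 of 4, 9 with a dye coefficient, 12 per gene, 1011 by SAM and 6 to 93 with 1 array left out (6, 93, 10 and 7 without replicates 1 to 4). The forward arrays gave 2 in place of 0 when the swapped arrays shared their fit (CG18787 and a feature without a symbol), and the 5 of the swapped arrays became 0 when centred. At an unadjusted p under 0.05 centring gave 56 lower and 12 higher on the forward arrays and 98 and 94 on the swapped ones. The SAM counts are at its looser rate, the other counts of passing features at an adjusted p under 0.05.

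Against the 2nd day, the 1 feature became 0 when centred in both readings, and 0 to 50 turned (50 without replicate 1) and 0 to 1 as deposited (0 without replicate 3) with 1 array left out. Against 12 hrs, 0 turned became 0 to 2 (2 without replicate 1), and 5 as deposited became 1 when centred and 1 to 60 (1, 60, 6 and 1 without replicates 1 to 4). With the replicate number as a block the counts against the 2nd day were 0 turned and 1 as deposited, and against 12 hrs 0 and 16. Whether same-numbered arrays of different time points share more than a number is not known. Over 613 features, deviations of such arrays from their time point mean correlated with r from -0.069 to 0.181 turned and from -0.032 to 0.279 as deposited.

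For single named genes, 23 of 296 values moved by more than 1 SD under centring, 63 of 148 under the other reading and 0 of 296 with a dye coefficient. For genes on all 4 arrays a dye coefficient leaves the mean unchanged by design, so those values could not move. The cause of these changes was not tested. The 4 arrays, with 6148 and 6535 spots on 2 of them, limit the precision.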

Other observations

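Features without a symbol here held the extremes of the 7th day. One gave 0.56, -4.96 and -0.74 on replicates 1 to 3, a mean of -1.71 ± 2.88 (SD, n = 3), and passed as deposited on the strength of replicate 2. It had a value on 0 of the 8 arrays of the other time points. Another, printed next to Jhbp13, gave -1.16, 0.23, -0.92 and -1.47 on replicates 1 to 4, near those of Jhbp13 except on replicate 2. One more, printed 2 positions from CG6983, gave -1.06, -0.42 and -1.29 on replicates 1, 3 and 4, near the values of that gene (-1.09, -0.38 and -1.33), while CG6983 had a value on all 8 other arrays and this feature on none.

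Turned and without replicate 1, further genes passed on both sides. On the lower side, CG18787 gave -2.35 and 0.71 on replicates 2 and 3, mrn, a subunit of the transcription factor TFIIH, -1.89 and 0.92, and eIF2Bgamma, a subunit of a translation initiation factor exchange complex, -1.36 and 1.32. On replicate 1 they gave -0.80, -0.59 and -0.05, and none had a value on replicate 4. On the higher side, GatA, mamo, mew and CG15365 had estimates from 0.90 to 0.92. Other than mew, these genes were chosen after their values were seen.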
